A study of Homo sapiens with 3 samples.

Results

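Lysosomes break down proteins, lipids and glycans in an acidic lumen, and 46 genes of this organelle were followed in HCC-LM3 cells after blockade of Hedgehog (Hh) signaling. Membership was set by gene name and not by a threshold on the measured values. The list holds the soluble hydrolases, the proteins of the lysosomal membrane with the cholesterol carrier NPC2, and the subunits of the vacuolar ATPase (V-ATPase). Of the 46 genes, 44 had at least 1 annotated probe on the arrays (72 probes), out of 20043 genes with a probe in all. The tetraspanin CD63 and ATP6V0C, the proteolipid of the proton pore, had no annotated probe and were not analysed here. HCC-LM3 is a human hepatocellular carcinoma (HCC) line, labelled as an adherent epithelial adenocarcinoma. Hh signaling was blocked either at SMO, by cyclopamine, or at the Gli transcription factors, by GANT61, each at 20 μM, and DMSO alone served as control, with RNA taken at 48 h. One condition corresponds to 1 HumanHT-12 v4 BeadChip array (Illumina), so 3 arrays of the same line were compared.

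Every lysosome depends on acid. The V-ATPase is a rotary pump in which a cytosolic V1 sector splits ATP and a membrane-bound V0 sector passes protons into the lumen, where cathepsins and other hydrolases work at low pH. Hydrolases reach the organelle from the Golgi by means of a mannose phosphate tag and its receptors. Transcription of many of these genes is known to be driven by TFEB, TFE3 and MITF, which bind an E-box-containing element (named CLEAR) and are held in the cytosol by the kinase mTOR while nutrients are plentiful.

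With 1 array per condition no difference has a replicate check. No p-value is given, and precision is limited by how few arrays there are. Values are intensities on a linear scale, already normalized between arrays, and a difference is the log2 intensity of one array minus that of another, taken from the brightest probe of each gene. A log2 difference of 1 is 2-fold. An intensity over 63.75 (1.5 times the most common value of 42.5 on each array) was counted as above background, which 10441 genes passed on at least 1 array. As a gauge of how far probes disagree, the median gap between the brightest pair of probes of a gene was scaled to an SD. Over 2764 genes with several probes above background this SD was 0.38 for a log2 difference between cyclopamine and DMSO. It was 0.43 between GANT61 and DMSO and 0.21 between the treated arrays. Large gaps weigh little in it. Both probes are read on the same arrays, so neither spread between arrays nor spread between cultures is part of that SD. The epithelial genes KRT18 and EPCAM were above background on all arrays, as was KRT8 (1423 with DMSO, 335 with cyclopamine, 286 with GANT61), whereas the epithelial genes KRT19 and CDH1 and the hepatocyte products AFP, APOA1, APOB, TTR and SERPINA1 were not on any array and ALB was near the limit (69.6 with DMSO, 70.4 with cyclopamine and 80.0 with GANT61). Of 9 commonly used reference genes, 8 were lower than with DMSO after cyclopamine and 6 after GANT61, with median log2 differences of −0.81 and −0.70, and B2M was higher after both (0.14 and 0.34). Scaling on them moves the median of all genes to 0.85 and 0.72, and differences below are relative to the unscaled arrays.

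The promoters of the genes are shown first, since the known lysosomal regulators act through a short sequence there. RefSeq promoters (GRCh38.p14, from 250 bases before to 50 bases after a transcript start) were at hand for 33 of the 46 genes. Some genes have several promoters, and a gene was counted if any of them held the sequence. CD63 was counted in this way, by 1 promoter that is not at the gene start. The E-box core CACGTG, which reads the same on both strands, was found in 10 of these 33 genes (30.3%), compared with 8.77% of all 27305 genes with a promoter and 13.3% of 8501 genes above background. The longer palindrome TCACGTGA, which contains that core, was found in 6 of the 33 (18.2%), compared with 1.18% of all genes and 2.52% of those above background. The full CLEAR palindrome of 10 bases, which contains both, was present in GAA, MCOLN1 and ATP6V1G1. The 100 bases before the gene start are given for the 6 genes with the longer palindrome, because these genes lay on both sides of 0 on the arrays. Each is written 5′ to 3′ on the strand of the gene, and capitals mark the core.
ATP6V1G1 (chr9:114587669-114587768, plus strand): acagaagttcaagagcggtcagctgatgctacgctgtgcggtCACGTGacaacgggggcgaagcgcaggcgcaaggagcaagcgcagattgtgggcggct
MCOLN1 (chr19:7522524-7522623, plus strand): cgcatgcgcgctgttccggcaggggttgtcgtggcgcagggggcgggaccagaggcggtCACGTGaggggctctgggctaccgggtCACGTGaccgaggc
LAMP1 (chr13:113297139-113297238, plus strand): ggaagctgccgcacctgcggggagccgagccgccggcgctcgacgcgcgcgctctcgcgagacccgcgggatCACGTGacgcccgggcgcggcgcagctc
ATP6V0D1 (chr16:67481158-67481257, minus strand): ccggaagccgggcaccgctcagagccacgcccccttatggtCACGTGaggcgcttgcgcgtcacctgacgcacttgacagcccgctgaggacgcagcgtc
GAA (chr17:80101481-80101580, plus strand): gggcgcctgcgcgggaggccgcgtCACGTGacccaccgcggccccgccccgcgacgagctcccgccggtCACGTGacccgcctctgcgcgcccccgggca
CTSA (chr20:45891235-45891334, plus strand): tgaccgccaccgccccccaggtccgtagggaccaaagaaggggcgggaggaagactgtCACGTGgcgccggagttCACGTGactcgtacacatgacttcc

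Among these 6 genes ATP6V1G1 was at least 2-fold higher with each compound than with DMSO, LAMP1 and MCOLN1 differed from DMSO by 0.28 or less on the log2 scale, and GAA, ATP6V0D1 and CTSA were lower to different extents. In the order ATP6V1G1, MCOLN1, LAMP1, ATP6V0D1 and CTSA, the log2 differences were 1.14, 0.28, 0.048, −0.36 and −0.99 with cyclopamine and 1.09, 0.20, −0.074, −0.52 and −1.63 with GANT61. GAA had −0.31 with cyclopamine, and on the GANT61 array, where it did not exceed background, it was at least 1.84-fold lower. In CTSA the cores begin 42 and 25 bases before the gene start, in MCOLN1 41 and 14 bases, and in ATP6V1G1 58 bases. LAMP1 holds 6 cores in its promoter, of which 1 lies whole in the stretch shown. Over the 9 genes with a core that were above background the median log2 difference was 0.048 with cyclopamine and −0.074 with GANT61. Over the 21 genes with a promoter but no core it was 0.30 and 0.023. A match to these letters is a description and does not show binding. With GANT61, 5 of the 21 genes without a core were at least 2-fold higher than with DMSO and 2 were lower. The higher genes were CTSL, CD68, NPC1, PPT1 and ATP6V1E1, and the lower ones MAN2B1 and CTSZ. Of the 9 genes with a core, 1 was higher (ATP6V1G1) and 1 lower (CTSA). Of all genes, 8.16% were higher and 9.64% lower.

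Across the whole list few genes were called in the comparison of cyclopamine with DMSO. Background was exceeded by 42 of the 44 genes on at least 1 array. Of these 42, 2 were at least 2-fold higher (4.7% of all 10441 genes were) and 0 were at least 2-fold lower (6.31% of all genes were), so the shares were near or under the background. To any extent 25 of the 42 were higher, or 59.5%, compared with 52.5% of all genes. Their median log2 difference was 0.32, beside 0.033 over all genes. Scaled on the reference genes, 23 of the 42 genes were at least 2-fold higher and 0 lower, where 39.2% of all genes were 2-fold higher.

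With GANT61, 7 of the 42 genes (16.7%) were at least 2-fold higher than with DMSO, compared with 8.16% of all genes, and 3 were at least 2-fold lower, compared with 9.64%. Higher were CD68, CTSL, NPC1, PPT1, ATP6V1A, ATP6V1G1 and ATP6V1E1, and lower were CTSA, MAN2B1 and CTSZ. The median log2 difference was 0.15, beside 0.018 for all genes, falling to 0.015 where a gene's probes were averaged instead, with 23 of 42 genes higher to any extent (54.8%, against 50.8% of all). Scaled on the reference genes, 19 of the 42 were at least 2-fold higher and 0 lower, where 34.5% of all genes were higher. The comparisons with DMSO share the same DMSO array, so the values of one are not independent of those of the other.

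**Figure D1:**
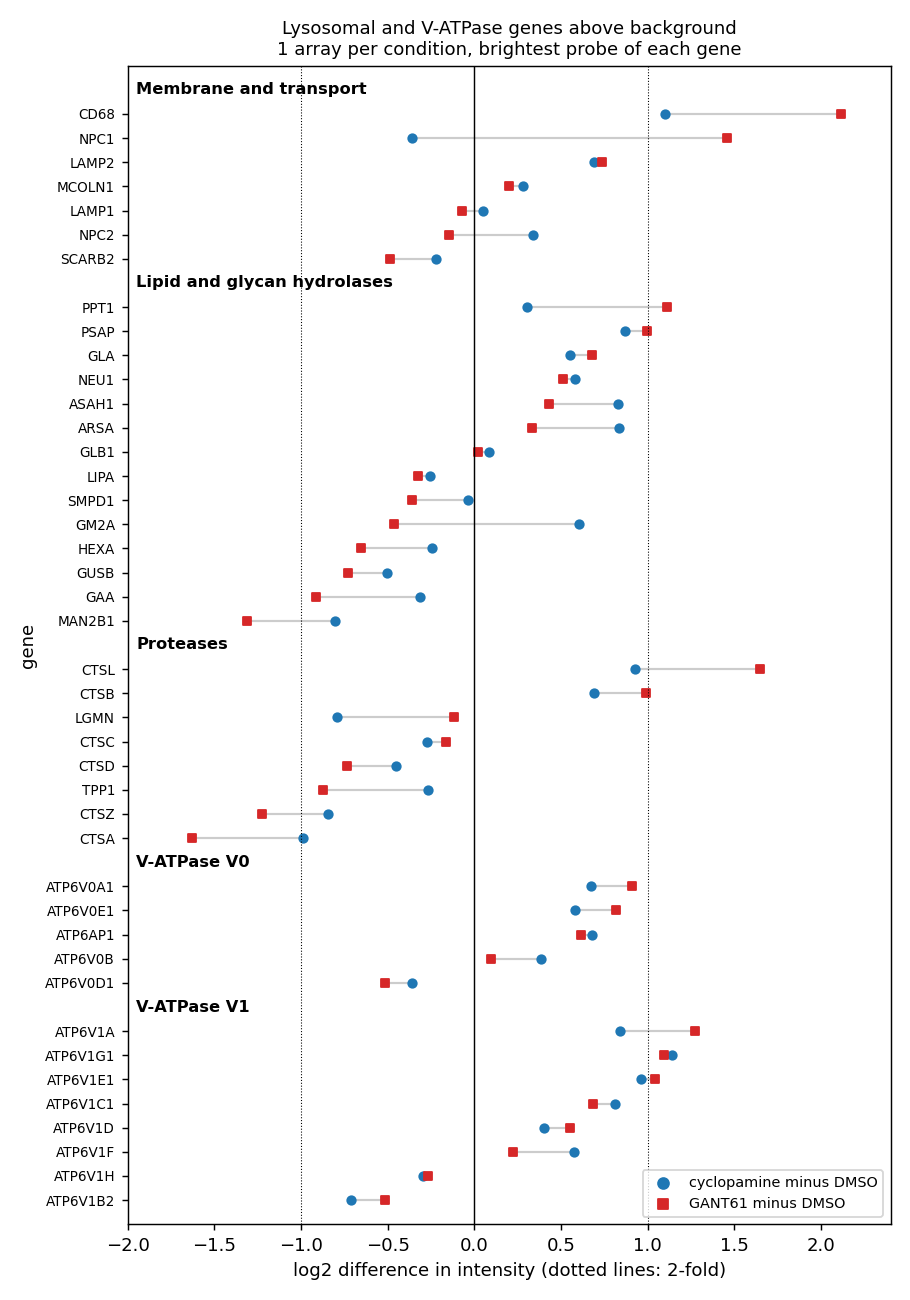
Each row is a gene above background, grouped by role, and the horizontal axis is the log2 difference in normalized intensity of the cyclopamine array (circles) or the GANT61 array (squares) from the DMSO array, with dotted lines at 2-fold. The V1 and V0 subunits lie mostly to the right of 0, the proteases mostly to the left (scaled on the reference genes, their medians move to 0.45 and 0.25), and NPC1 has its circle at −0.36 and its square at 1.46. The squares of HEXA and GAA are from GANT61 values not above background.

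Most V-ATPase subunits were higher on the treated arrays. Of the 13 measured subunits, 10 (76.9%) were higher than with DMSO after cyclopamine and 10 after GANT61, with median log2 differences of 0.58 and 0.61, beside 0.033 and 0.018 over all genes. Over all genes 52.5% and 50.8% were higher to any extent. At least 2-fold higher were 1 of the 13 with cyclopamine, near the 4.7% of all genes, and 3 with GANT61, beside 8.16% of all genes. None was 2-fold lower, beside 6.31% and 9.64% of all genes. ATP6V1A (chr3:113747035-113812056), the catalytic subunit that binds and splits ATP, had intensities of 1875 (DMSO), 3358 (cyclopamine) and 4524 (GANT61), the order in which values of the 3 arrays are given from here on. These are log2 differences of 0.84 and 1.27. ATP6V1G1 (chr9:114587769-114598879), a subunit of the peripheral stalk and the gene with the CLEAR palindrome at 58 bases, had 2470.2, 5443 and 5261. Both treated arrays were above DMSO and differed from each other by −0.049 on the log2 scale.

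ATP6V1E1 (chr22:17592136-17628822), which pairs with the G subunit in the stalk, had 2641, 5129.8 and 5432 by its brightest probe and 2814, 3723 and 3906 by the other. The log2 differences were 0.96 and 1.04 by the former but 0.40 and 0.47 by the latter, so its 2-fold call with GANT61 rests on 1 probe. ATP6V1C1, another subunit of the V1 sector, had 137, 241 and 220.3, and ATP6V1D, of the central rotor, had 1772, 2344 and 2594. ATP6V1F, also a rotor subunit, had 1937, 2886 and 2262. All 3 were higher on both treated arrays, without reaching 2-fold. On the other side stood ATP6V1B2, the partner of the A subunit in the catalytic ring, with 2229, 1362 and 1557 (log2 differences of −0.71 and −0.52), and ATP6V1H, a regulatory subunit, with 694, 564 and 577. The A and B subunits, which sit side by side in one ring, thus had opposite signs on these arrays, each by 1 probe.

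In the membrane sector ATP6V0A1, the a subunit through which protons enter and leave, had 471, 752 and 883 (0.67 and 0.91 on the log2 scale). ATP6V0E1, a small membrane subunit, had 3279.6, 4898 and 5769, and its dimmer probe had 1525, 1855 and 1924. ATP6AP1, an accessory protein needed for assembly of the pump, had 2839.6, 4539 and 4344. None of these reached 2-fold. ATP6V0B, a proteolipid of the rotating ring, had 1471, 1919 and 1571, and its other probe had log2 differences of 0.13 and −0.15. ATP6V0D1, which joins the ring to the central stalk, was the 1 lower gene of the sector, with 301, 234 and 211.

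A further list of 11 subunits was also mixed. Of 5 above background, 1 was at least 2-fold higher and 1 at least 2-fold lower than with DMSO after each compound. Of all genes, 4.7% were higher and 6.31% lower with cyclopamine, and 8.16% and 9.64% with GANT61. ATP6V0E2, a second form of the e subunit, had 300.3, 636 and 738, whereas TCIRG1, the form of the a subunit known from osteoclasts, had 544, 244 and 257. Thus ATP6V0A1 and TCIRG1, alternative a subunits, differed from DMSO in opposite directions with cyclopamine (0.67 and −1.16) and with GANT61 (0.91 and −1.08). Both genes have 1 probe above background. ATP6V0A2, another form, had 278, 355 and 459. ATP6V1B1, the B subunit known from kidney, had 79.5, 131 and 77.1, and ATP6AP2, the other accessory protein, 3592, 4323 and 4152.

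**Figure D2:**
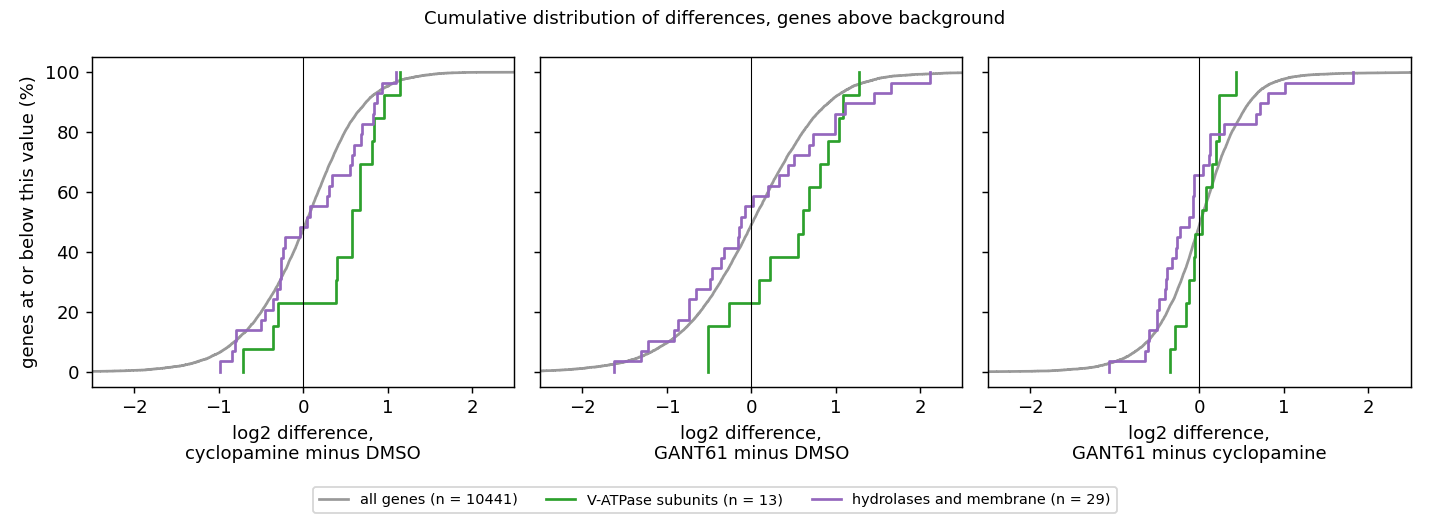
Each panel shows the share of genes (percent, vertical axis) at or below a log2 difference (horizontal axis) for all 10441 genes above background, the 13 V-ATPase subunits and the 29 other members. Over most of its length the V-ATPase curve lies to the right of that of all genes in both comparisons with DMSO and close to it between the treated arrays, and the 29 other members have medians of 0.048 (cyclopamine), −0.12 (GANT61) and −0.12 (between the treated arrays).

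Among the proteases, 8 of 10 were above background. Of these 8, 6 were lower and 2 (25%) higher than with DMSO after each compound, where 52.5% and 50.8% of all genes were higher, and the group median was −0.36 for cyclopamine and −0.45 for GANT61 on the log2 scale, which turned to 0.45 and 0.25 on scaling by the reference genes. Past 2-fold were 0 with cyclopamine, and 2 lower and 1 higher with GANT61, beside 9.64% and 8.16% of all genes. CTSA (chr20:45891335-45898820), the carboxypeptidase also known as protective protein because it stabilizes neuraminidase and galactosidase, had intensities of 653, 329 and 211. It was 1.98-fold lower with cyclopamine, just short of 2-fold, and 3.10-fold lower with GANT61. CTSZ (cathepsin Z, a carboxypeptidase, chr20:58995185-59007254) had 235, 131 and 101, a log2 difference of −0.84 and −1.22. In both genes DMSO was highest and GANT61 lowest.

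CTSD (cathepsin D, an aspartic protease) had 165, 121 and 99.4, and TPP1, a tripeptidyl peptidase deficient in a form of neuronal ceroid lipofuscinosis, had 814, 677 and 445. LGMN (legumain), which cleaves after asparagine and processes other cathepsins, had 633, 366 and 584. It was lower with cyclopamine (−0.79) and near DMSO with GANT61 (−0.12), and its dimmer probe gave −0.44 and 0.029. CTSC (cathepsin C, which activates serine proteases of leukocytes) had 104, 86.2 and 93.1. The leukocyte protease CTSS and the aminopeptidase CTSH were not above background on any array, at 36.4, 40.7 and 38.9 and at 43.0, 41.6 and 41.7.

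Cathepsins L and B were the proteases with higher values on the treated arrays. CTSL (chr9:87726119-87731469), a cysteine endopeptidase, had 3152, 5998 and 9879.6, with log2 differences of 0.93 and 1.65. All 3 of its probes were higher on both treated arrays, and their log2 differences with GANT61 were 1.65, 1.35 and 1.08. CTSB had 438, 707 and 869 by its brightest probe (0.69 and 0.99), but its other probe had 252, 229 and 188 (−0.14 and −0.42). The probes of CTSB therefore disagree in sign in every comparison. Among the other cysteine cathepsins, CTSF was lower, with 495, 242 and 152, and CTSV, a close relative of CTSL, was higher with GANT61 only, with 174, 163 and 395. Probes of such close relatives may share RNA, and whether the CTSV probe also reads CTSL was not tested.

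**Figure D3:**
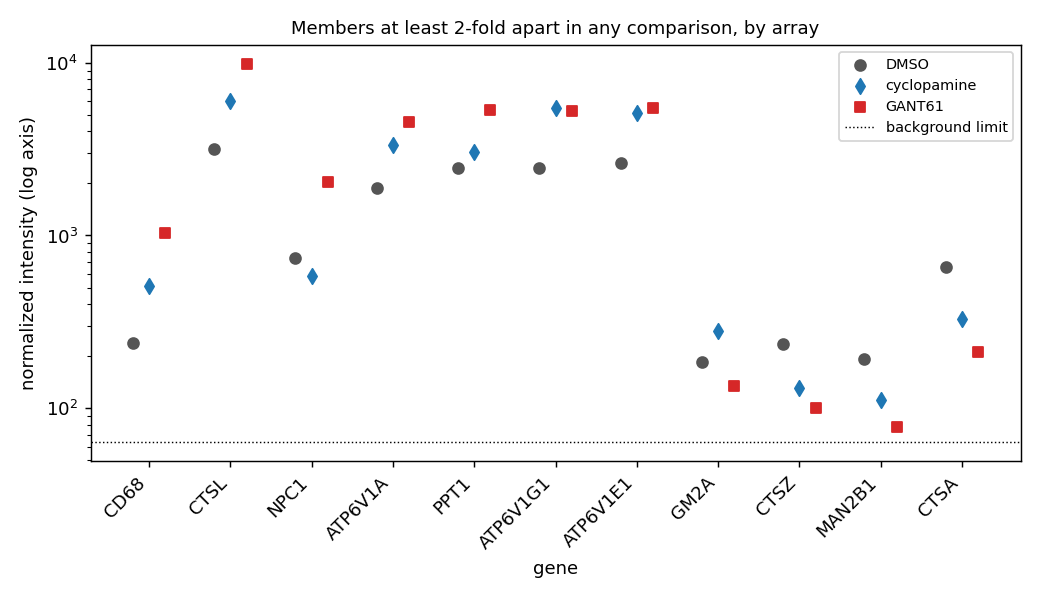
The vertical axis is the normalized intensity (log scale) of the brightest probe on the DMSO, cyclopamine and GANT61 arrays for the 11 genes at least 2-fold apart in any comparison, and the dotted line is the background limit of 63.75. CTSL goes from 3152 to 9879.6, CTSA from 653 to 211, and NPC1 stands high on the GANT61 array alone.

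The enzymes and activators of lipid and glycan breakdown were split. Of 14, 8 (57.1%) were higher than with DMSO after cyclopamine and 7 (50%) after GANT61, near the 52.5% and 50.8% of all genes. The group medians were 0.19 and −0.15 on the log2 scale, beside 0.033 and 0.018 over all genes. Over the 12 genes above background on all arrays they were 0.43 and 0.18, and the GANT61 median turned to 0.55 on scaling by the reference genes. PPT1 (chr1:40071461-40097252), which removes palmitate from proteins, had 2473, 3047 and 5342. It was 2.16-fold higher with GANT61, and the difference with cyclopamine (0.30) was smaller than the SD between probes. PSAP (prosaposin, the precursor of the saposins that present sphingolipids to their hydrolases) had 4219, 7708 and 8403, and its second probe 3962, 6777 and 7716. Log2 differences by the pair of probes were 0.87 and 0.77 with cyclopamine and 0.99 and 0.96 with GANT61.

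MAN2B1 (chr19:12646512-12666742), the acid alpha-mannosidase, had 194, 111 and 78.3, and was 2.48-fold lower with GANT61. GAA, which degrades glycogen and carries the CLEAR palindrome at both of its cores, had 117, 94.4 and 62.3. The GANT61 value was not above background, so GAA was at least 1.84-fold lower there. HEXA, the alpha chain of beta-hexosaminidase, had 82.4, 69.5 and 52.3 and was at least 1.29-fold lower by the same bound. GUSB, the beta-glucuronidase, had 2112, 1488 and 1271. These 4 genes were in the order DMSO, cyclopamine, GANT61 from high to low.

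GM2A (chr5:151253185-151270440), the protein that lifts GM2 ganglioside out of the membrane for HEXA, had 185, 281 and 134, so the treated arrays lay on opposite sides of DMSO. GLA (alpha-galactosidase) had 1503, 2201 and 2403 and NEU1 (neuraminidase, the partner of CTSA) 313, 468 and 446. NEU1 and CTSA, which work in one complex, had opposite signs, with log2 differences of 0.58 and −0.99 with cyclopamine and of 0.51 and −1.63 with GANT61. Both genes have 1 probe. The third partner, GLB1 (beta-galactosidase), had 951, 1008 and 966 by its brightest probe. A second probe had 529, 803 and 654, with log2 differences of 0.60 with cyclopamine and 0.30 with GANT61.

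ASAH1 (acid ceramidase) had 99.6, 177 and 134, and ARSA (arylsulfatase A, which desulfates sulfatide) 95.4, 170.4 and 120.2. The other ARSA probe was above background with DMSO only, at 74.4, and so did not show the higher values of the brightest probe. SMPD1 (acid sphingomyelinase) had 157, 153 and 122 and LIPA (the acid lipase that frees cholesterol from its esters) 1339, 1119 and 1067, both within the SD between probes of DMSO. Of 28 further hydrolases, 17 were above background, and 2 (11.8%) were at least 2-fold higher and 2 lower with cyclopamine than with DMSO, beside 4.7% and 6.31% of all genes, as were 2 and 2 with GANT61, beside 8.16% and 9.64%. DPP7, a dipeptidyl peptidase of the lysosome, had 914, 4591 and 2638, a log2 difference of 2.33 and 1.53. DNASE2, the acid DNase, had 904, 2141 and 1633. SGSH, a heparan sulfatase, had 514, 187 and 218. IDS, which removes sulfate from iduronate, had 187, 140.5 and 296.

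In the membrane group 7 of 8 genes were measured, with median log2 differences of 0.28 (cyclopamine) and 0.20 (GANT61), beside 0.033 and 0.018 over all genes. Higher than with DMSO were 5 (71.4%) and 4 (57.1%) of the 7, beside 52.5% and 50.8% of all genes. The major glycoprotein LAMP1 was close to level, with 2919, 3017 and 2773. NPC1 (chr18:23506184-23586506), the membrane protein that passes cholesterol out of the lysosome, had 745, 580.0 and 2042. It was 2.74-fold higher with GANT61 than with DMSO, whereas its soluble partner NPC2, which hands cholesterol over to it, had 6895, 8711 and 6229. NPC1 has 1 probe, so no second probe bears on it. SCARB2, the receptor that brings glucocerebrosidase to lysosomes, had 2389, 2052 and 1704, and MCOLN1, a calcium channel whose gene also carries the CLEAR palindrome, had 212, 258 and 244.

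CD68 (chr17:7579638-7582111), a LAMP-family protein best known from macrophages, had 238, 509 and 1032. A second probe of the gene had 85.4, 132 and 1679, and the third was above background with GANT61 only, at 79.9. The log2 differences of the brighter probes were thus 2.12 and 4.30 with GANT61 and 1.10 and 0.63 with cyclopamine, so the 2-fold call with cyclopamine rests on 1 probe. Of 8 other markers of immune cells and macrophages, among them PTPRC, CSF1R and CD163, 7 had a probe and 0 were above background on any array, and their summed intensity was 314, 330.2 and 319. Markers of endothelial cells were not above background either (0 of 5), and of 7 fibroblast markers COL1A1 was on all arrays and PDGFRB with DMSO only. The 7 fibroblast markers had summed intensities of 505, 414 and 329, and their part in the results was not tested.

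LAMP2, the other major membrane glycoprotein, exists in splice forms that differ at their tail, of which form A is the receptor of chaperone-mediated autophagy. Its 6 probes were all higher with cyclopamine than with DMSO, by 0.51 to 1.65 on the log2 scale. With GANT61 they were split, from −0.72 to 0.74. The brightest probe, annotated to form B, had 1341, 2162 and 2232, and the other probes of form B had 842, 1617 and 1397 and 455, 804 and 437. The probes annotated to form A had 918, 1306 and 559 and 272, 852 and 452. A probe may lie in sequence that the forms share, and the annotation does not give its place, so the forms cannot be told apart by these values.

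**Figure D4:**
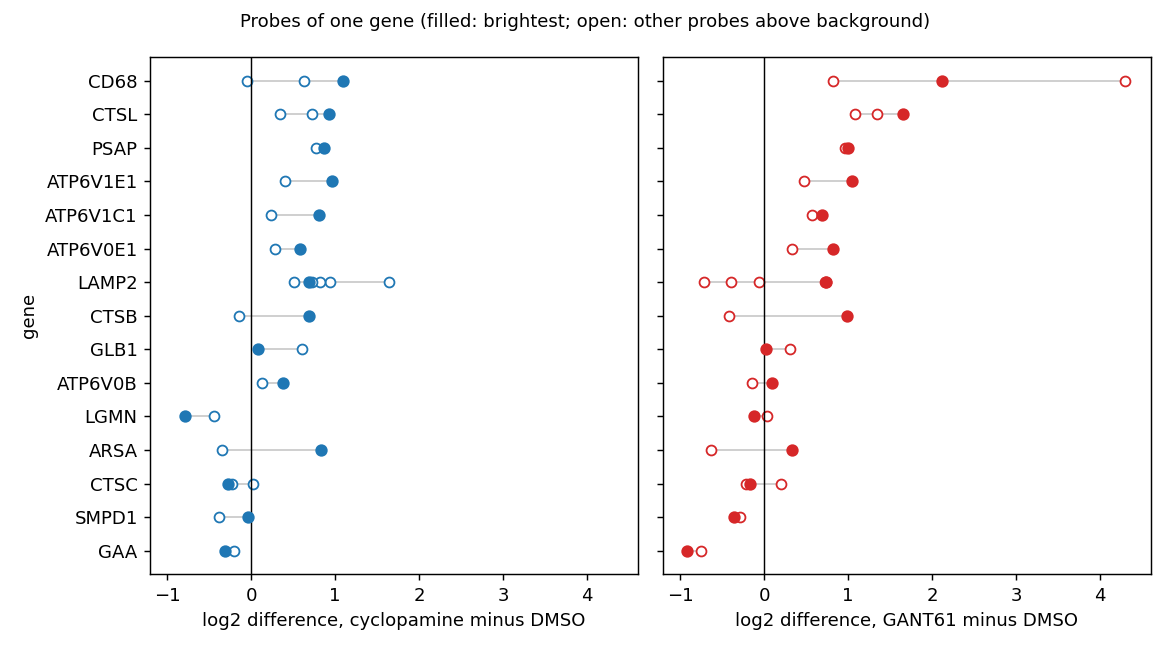
Each row is one of the 15 genes with several probes above background, the horizontal axis is the log2 difference from DMSO with cyclopamine (left panel) or GANT61 (right panel), and the filled point is the brightest probe. The probes of CTSL and PSAP lie to the right of 0 in both panels, those of CTSB fall on both sides, and the second CD68 probe reaches 4.30 with GANT61, while the open points of ARSA and the lowest of CD68 come from probes above background on 1 array only.

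Of the 12 genes with several probes above background on all arrays, these probes had the same sign in 10 genes with cyclopamine and in 7 with GANT61. Over 15 genes with several probes above background on at least 1 array, the brightest pair of probes lay 0.35 apart in the median with cyclopamine and 0.24 with GANT61, beside 0.36 and 0.41 for the 2764 genes of all kinds. Among the 12 genes, those with both signs against DMSO were, besides CTSB and LAMP2, CTSC, ATP6V0B and LGMN. Among the 15, ARSA also had both signs with each compound and CD68 with cyclopamine, in each gene through a probe above background on 1 array only.

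Other proteins of the membrane were examined in a list of 24, of which 18 were above background, 3 of them (16.7%) at least 2-fold higher and 0 at least 2-fold lower than with DMSO after each compound, beside 4.7% and 8.16% of all genes higher and 6.31% and 9.64% lower. CTNS, the cystine exporter, had 281, 699 and 736 and was higher with both. CLCN7, the chloride and proton exchanger of the lysosome, had 1331, 2919 and 2263, and OSTM1, its obligate partner, had 125, 295 and 233. These partners were both at least 2-fold higher with cyclopamine (1.13 and 1.23) and had 0.77 and 0.90 with GANT61. ABCB9, a peptide transporter, had 161, 116 and 455 and was thus high on the GANT61 array alone, as was TPCN2, a cation channel, with 125, 146 and 253. CLN3, whose loss causes juvenile ceroid lipofuscinosis, had 196, 125 and 105. Of the sorting machinery 8 of 10 genes were above background. With cyclopamine 1 of these 8 (12.5%) was at least 2-fold higher, beside 4.7% of all genes. It was the mannose phosphate receptor IGF2R, with 1444, 2922 and 2366. GGA2, an adaptor that loads the receptors at the Golgi, had 173, 293 and 218, and AP1M1, a subunit of the clathrin adaptor AP-1, had 744, 709 and 1110.3.

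The regulators themselves were dim or mixed. TFEB was not above background on any array, at 43.5, 45.2 and 45.2. TFE3 had 90.1, 94.4 and 79.8 and MITF 201, 172 and 126. MTOR, the kinase that restrains them, had 723, 622 and 538. Of 17 regulators above background, 3 (17.6%) were at least 2-fold higher and 0 lower with cyclopamine than with DMSO, beside 4.7% and 6.31% of all genes. With GANT61 2 were at least 2-fold lower, beside 9.64% of all genes, and 2 at least 2-fold higher, beside 8.16% of all genes. The higher genes were RRAGB and FNIP2. RRAGB and RRAGC, GTPases that bring mTOR to the lysosome, had 224, 649.9 and 491 and 533, 1079 and 1024. LAMTOR3, of the Ragulator complex that anchors them, had 437, 1086 and 847, whereas LAMTOR4 of the same complex had 2009, 2066 and 851. PPP3CB, a catalytic subunit of calcineurin, which dephosphorylates TFEB, had 507, 532 and 213. FNIP2, a partner of folliculin, was not above background with DMSO. Its call with GANT61, at 123, thus rests on a dim DMSO value, and the bound is at least 1.93-fold higher.

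GANT61 and cyclopamine were used at the same dose and time, so their arrays were also set against each other, as 1 pair. Of the 42 genes, 2 had at least 2-fold higher values on the GANT61 array, compared with 2.31% of all genes, and 1 was at least 2-fold lower, compared with 3.4%. The higher genes were NPC1, at 3.52-fold, and CD68, at 2.03-fold, and the lower gene was GM2A, at 2.10-fold. After normexp correction CD68 (0.99 on the log2 scale) and GM2A (−0.97) fell short of 2-fold, as did CD68 on scaling by the reference genes (0.91). With the mean of all probes CD68 had 1.85. Its second probe had 3.66, and the third, above background with GANT61 only, had 0.86. The median log2 difference over the 42 genes was −0.069, beside 0.0096 for all genes. Among the 13 V-ATPase subunits it was 0.033, with a range of −0.35 to 0.43 and 0 genes past 2-fold, and it turned to −0.079 on scaling by the reference genes. ATP6V1A had the largest difference of the subunits, 0.43. Of the 14 genes for lipid and glycan breakdown 11 were lower with GANT61, HEXA and GAA at values below background. The other 3 (21.4%) were higher, beside 51.0% of all genes. The median of the 14 was −0.28, which was −0.15 over genes above background on all arrays and −0.17 where probes were averaged. The higher genes were PPT1, at 0.81, and PSAP and GLA, at 0.12 and 0.13. PSAP, GLA, GLB1, LIPA and NEU1 differed by less than the SD between probes (0.21). The proteases were evenly divided, with LGMN at 0.67 and CTSL at 0.72 on one side and CTSA at −0.64 and TPP1 at −0.61 on the other. None of these differences was tested, since each rests on 1 array per compound.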

How the data were processed

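RNA of HCC-LM3 cells was measured on 3 Illumina HumanHT-12 v4 arrays, 1 per condition, and arrays were assigned by their labels. The authors deposited a normalized signal intensity for 47319 probes, with no software named for the normalization in the sources at hand. The sorted intensities are nearly the same on all 3 arrays, so a shift shared by most genes cannot be seen. A further deposited table has 6 columns whose headings match no sample, and they were not used here. Probes were named by the platform annotation (30110 with 1 gene symbol, 8 with several and 17201 unnamed here), with symbols updated by the gene table of GRCh38.p14, which 30071 matched. No background was subtracted. Each gene is its brightest probe by mean log2 intensity, and the deposited intensities were compared as log2 differences with a 2-fold rule in place of a test. The DiffScore of the study needs bead-level errors and was not used. The named genes are all members, up to 6 of each further list, from those with the largest difference in any comparison, and TFEB, TFE3, MITF and MTOR. Marker genes were named besides. The members and lists were chosen with earlier results of these data known. Alternatives were normexp correction (offset 50) with quantile normalization, subtraction of the most common intensity (offset 16), the mean of all probes, no filter, a filter on all 3 arrays, a limit of 2 times the most common intensity, scaling on 9 of 12 listed reference genes, centring on the median, and 1.5-fold and 3-fold thresholds. The steps were run on simulated arrays with noise far smaller than the spread between probes and with changes in bright genes only. That run checks the code and does not bear on the 2-fold rule in these data. Python 3.11.15 (pandas 2.3.3, numpy 2.4.6, matplotlib 3.10.9) and R 4.3.3 (limma 3.58.1) were used.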

Additional observations from a re-analysis of the deposited data

How the results depend on the processing

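No paired analysis was possible because each condition has 1 array. The single arrays limit every value, and dim genes such as HEXA and GAA have only a bound. Scaled on the reference genes, the members at least 2-fold higher than with DMSO were 23 with cyclopamine and 19 with GANT61, beside 39.2% and 34.5% of all genes. Those lower with GANT61 were 0, beside 2.2% of all genes, and the medians were 1.13 and 0.85. Between the treated arrays that scaling left 1 higher gene, beside 1.57% of all genes, and a median of −0.18. With the background subtracted, cyclopamine gave 1 lower and 4 higher genes, beside 9.4% and 7.18% of all genes. GANT61 gave 5 lower genes, beside 13.4% of all genes. With the mean of all probes 1 gene was higher with cyclopamine, beside 3.2% of all genes, and the median with GANT61 was 0.015. With the median of all genes set to 0, 1 gene (CTSA) was lower with cyclopamine, beside 6.88% of all genes. After normexp correction 0 genes were lower and 1 higher with GANT61 than with cyclopamine, beside 2.66% and 1.84% of all genes. Of the 42 genes, a 1.5-fold threshold gave 5 lower and 14 higher with cyclopamine, beside 16.57% and 15.67% of all genes. With GANT61 it gave 8 lower and 15 higher, beside 20.78% and 20.99% of all genes. Between the treated arrays it gave 4 and 5, beside 10.98% and 10.3%. A 3-fold threshold gave 0 higher with cyclopamine, beside 0.565% of all genes. It gave 1 lower and 2 higher with GANT61, beside 2.83% and 1.695%. Between the treated arrays it gave 0 and 1, beside 0.67% and 0.517%. Group medians that changed sign were those of the proteases (0.45 with cyclopamine and 0.25 with GANT61) and the V-ATPase between the treated arrays (−0.079) when scaled on the reference genes. That of the lipid and glycan hydrolases with GANT61 became 0.55 under this scaling, 0.18 with all 3 arrays above background and 0.023 with the higher background limit, the last 2 by leaving out dim genes. The cyclopamine median of these hydrolases was 0.43 and 0.30 under the same filters, and that of the proteases with GANT61 −0.14 with no filter. The members called 2-fold kept their sign under the alternatives that change a gene's value. Filters and thresholds leave that value as it is and could not turn a sign, and genes picked for a large difference seldom turn. Scaled on the reference genes, the log2 differences of CTSA, MAN2B1 and CTSZ with GANT61 shrank to −0.93, −0.61 and −0.52, and the higher genes rose further above DMSO.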
